A study of Mus musculus with 219 samples.

Results

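The small structural RNAs described here are short, untranslated RNAs that work as the scaffolds of ribonucleoprotein particles. The 7 listed genes are Rn7s1 and Rn7s2 (7SL RNA), Rny1 and Rny3 (Y RNAs), Rn7sk (7SK RNA), Rmrp (the RNA of RNase MRP) and Rpph1 (the RNA of RNase P). They were chosen by name and matched through GENCODE vM21, which gives Rmrp 2 identifiers, so that the 7 genes are 8 of the 55487 identifiers in the deposited count tables.

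As background, all of these RNAs are made by RNA polymerase III. 7SL is the RNA core of the signal recognition particle (SRP), which brings ribosomes that are making secreted and membrane proteins to the endoplasmic reticulum. Y RNAs are bound by Ro60 (gene Trove2) and La (gene Ssb) and are known for their part in RNA quality control and DNA replication. 7SK holds the elongation kinase P-TEFb inactive through HEXIM proteins and so limits the release of paused RNA polymerase II. RNase P trims the leader from precursor tRNAs, and RNase MRP, which shares most of its proteins, cuts precursor ribosomal RNA. They are short and lack a long poly(A) tail, so total RNA libraries can hold them while poly(A)-selected libraries mostly leave them out.

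The libraries were strand-specific, rRNA-depleted total RNA libraries of left prefrontal cortex from mice, 1 library per animal. The mutant mice carried a heterozygous Snord116 deletion (HET/WT, Snord116+/-Ctg-/-), a Ctg transgene (WT/TG, Snord116+/+Ctg+/-) or both (HET/TG, Snord116+/-Ctg+/-), and their controls carried neither (WT/WT, Snord116+/+Ctg-/-). At about 8 weeks of age these mice went into light-controlled incubators at 22 °C, had 7 days to acclimate and were kept for 22 days on cycles of 11 h light and 11 h dark (11:11) or 12 h light and 12 h dark (12:12). In the CLAMS set the animals were in indirect calorimetry cages and were collected in constant darkness. In the RW set they had running wheels for the last 7 days and were collected on their light cycle. All 126 libraries of these sets come from zeitgeber time (ZT) 6, in males and females, with 4 animals in each of the 32 groups except 2 groups of 3. A second table, the atlas, holds 92 libraries of WT/WT mice of about 12 weeks from home cages on 12:12, taken at 8 times of day from ZT0 to ZT21 with 5 or 6 animals per sex and time. Set, housing and light at collection were one and the same division of the animals, so they cannot be told apart, and the sources used here name no batch or date of library preparation.

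Library totals were 12737699 to 29856536 counts at ZT6 and 12995491 to 18420258 counts in the atlas. Summed counts of 8 excitatory neuron markers of cortex were 1188 to 2086 counts-per-million (CPM) over the ZT6 libraries, and 1317 to 1925 CPM in the atlas. Markers of choroid plexus reached 2565 CPM in a single ZT6 library, and their part in the results was not tested. Snhg14, the transcript that hosts Snord116, was at 20.2 to 69.3 CPM in the deletion libraries other than 1, and at 116 to 281 CPM in the 62 libraries without the deletion. The exception was the library labelled RW female 11:11 HET/WT replicate 3, at 167 CPM. Another library, RW female 11:11 WT/TG replicate 1, had 45.5% of its counts on ribosomal RNA. Leaving out either of them changed no call for a structural RNA.

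The sequences of the 2 Y RNAs are shown because these genes ranged furthest between the 4 strata of set and sex. They lie on chromosome 6 of mm10, Rny1 at chr6:47788069-47788180 on the minus strand (112 bases) and Rny3 at chr6:47781624-47781725 on the plus strand (102 bases). Capitals mark the bases that are identical in both when they are aligned, in the transcripts of GENCODE vM21.
Rny1: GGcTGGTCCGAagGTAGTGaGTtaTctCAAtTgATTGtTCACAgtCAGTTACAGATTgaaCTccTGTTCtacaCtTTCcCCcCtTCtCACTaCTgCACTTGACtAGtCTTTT
Rny3: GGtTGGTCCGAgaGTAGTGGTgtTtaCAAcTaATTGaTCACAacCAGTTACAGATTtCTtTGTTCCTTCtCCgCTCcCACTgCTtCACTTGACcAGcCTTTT
The 81 identical bases are 72.3% of Rny1 and 79.4% of Rny3. They include runs at both ends, which pair with each other to form the stem that Ro60 binds, and the final run of T, the usual end of an RNA polymerase III transcript and the binding site of La. The alignment holds 21 substitutions, and Rny1 has 13 other annotated transcripts of at least 80% similarity.

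The 2 genes of 7SL are the same molecule in the annotation, with all 300 bases identical. A read from inside either gene matches both, so the split of counts between Rn7s1 and Rn7s2 is uncertain, and so is their total. The sources used here do not give the counting tool or its treatment of reads with more than 1 match. Each gene also overlaps 2 annotated microRNA genes, and those had 0 counts in every library.

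The 7SK sequence is shown because this RNA held nearly all the counts of the group. Rn7sk lies at chr9:78175303-78175633 on the minus strand (331 bases), and its first 120 bases are given. Capitals mark GATC, the DNA letters of the GAUC motif at which HEXIM proteins bind the first hairpin of 7SK.
Rn7sk: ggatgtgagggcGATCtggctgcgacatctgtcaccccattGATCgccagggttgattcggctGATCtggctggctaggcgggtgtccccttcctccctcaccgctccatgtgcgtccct
GATC was found at positions 13 to 16, 42 to 45 and 64 to 67, counted from the 5′ end. The motif reads the same on both strands. Of 4689 annotated transcripts of 300 to 360 bases, 429 (9.15%) held at least 3 copies and 3112 (66.4%) at least 1.

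Rmrp and Rpph1 gave almost no counts. Both Rmrp identifiers had 0 counts in all 218 libraries, which allows at most 0.103 to 0.462 CPM in a single ZT6 library, taking 3 counts as the limit that a count of 0 allows. Over the pooled ZT6 libraries that limit was 0.00133 CPM, and over the pooled atlas 0.00213 CPM. These limits cover counting error only. The 2 Rmrp identifiers are nested in each other at chr4:43492783-43493063, and 164 bases also overlap Ccdc107 on the opposite strand, which had 22018 counts over the ZT6 libraries. Rpph1, at chr14:50807449-50807767 on the minus strand, had 120 counts over the ZT6 libraries, with at most 13 in a library and 0 in 82 of 126. In the atlas it had 91 counts, with at most 5 in a library and 0 in 34 of 92. It shares 284 bases with Ccnb1ip1 on the same strand, which itself had 8 counts at ZT6. Neither Rmrp nor Rpph1 passed the filter on low counts, and no comparison is given for them. The part of the nested identifiers in the Rmrp count was not tested.

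The other 5 genes were tested in both tables. Rn7sk alone held 99.3% of the members' counts at ZT6 and 99.4% in the atlas. Together the members were 0.224 to 1.04% of a ZT6 library (median 0.411%) and 0.344 to 0.968% of an atlas library (median 0.8%). Levels below are CPM of a library size scaled by the trimmed mean of M-values (TMM). Per kilobase of transcript, the median level at ZT6 was 12443 CPM per kb for Rn7sk, 89.7 for Rny3, 38.3 for Rny1, 1.79 for Rn7s2 and 1.65 for Rn7s1. In the atlas it was 24232 CPM per kb for Rn7sk, 206 for Rny1, 199 for Rny3, 2.69 for Rn7s1 and 1.97 for Rn7s2. 7SL, which is among the most abundant RNAs of mammalian cells, thus had the lowest counted level per length of the 5 tested RNAs in both tables. Reads that match both 7SL genes may have been left out of the counts, so the counted level may be far below that of the RNA. The same limit holds for the 7SL differences below. In tissue libraries of this kind, fewer cells of a type and less RNA per cell cannot be told apart.

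The Y RNAs ranged furthest between the 4 strata of set and sex at ZT6. Rny1 was at 4.17, 35.9 and 122 CPM (lowest, median, highest) in CLAMS males and at 1.66, 4.23 and 29.3 CPM in RW males. In females it was at 2.02, 4.77 and 15.6 CPM in CLAMS and at 0.104, 0.328 and 6.00 CPM in RW. The highest stratum median was thus 110 times the lowest. Rny3 was at 4.79, 47.8 and 139 CPM in CLAMS males and at 3.76, 8.77 and 34.7 CPM in RW males. In females Rny3 was at 4.58, 9.73 and 29.9 CPM in CLAMS and at 0.167, 0.412 and 7.39 CPM in RW, so that its stratum medians spanned 116 times. For both Y RNAs CLAMS females and RW males had close medians, CLAMS males were far above them and RW females far below. The highest RW female value of both was the library rich in ribosomal RNA. The next highest RW female values were 0.915 CPM for Rny1 and 0.825 CPM for Rny3, and all 32 CLAMS female and all 31 RW male libraries lay above these.

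**Figure D1:**
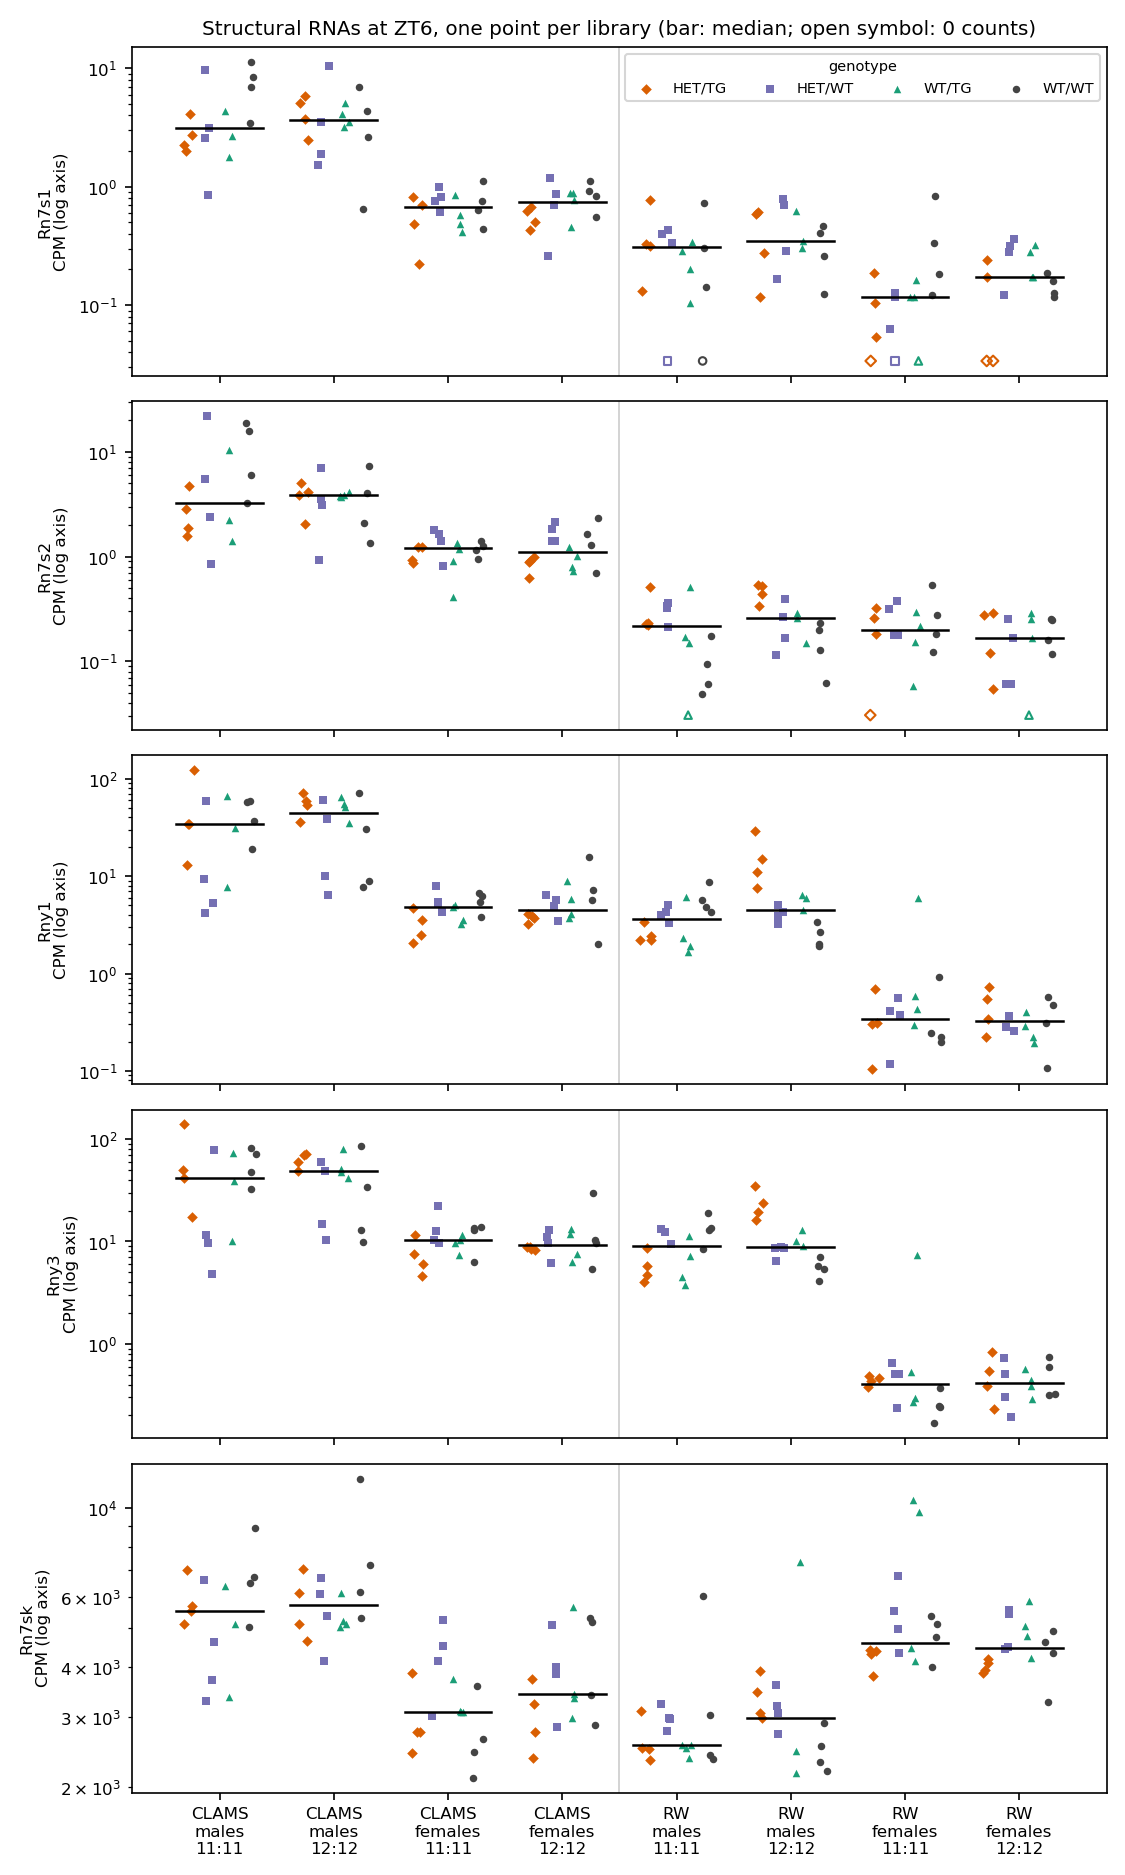
CPM of the 5 tested structural RNAs on log axes in every ZT6 library, by set, sex and light cycle, with 1 point per library, symbols for genotype (open at 0 counts) and bars for medians. Rny1 sits highest in CLAMS males (medians 33.9 CPM on 11:11 and 44.8 CPM on 12:12) and lowest in RW females (0.344 and 0.328 CPM), Rny3 follows it, and Rn7sk is lowest in RW males.

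7SL followed the set more than the sex. Rn7s1 was at 0.647, 3.52 and 11.3 CPM (lowest, median, highest) in CLAMS males and at 0, 0.313 and 0.791 CPM in RW males. In CLAMS females it was at 0.222, 0.705 and 1.17 CPM, against 0, 0.144 and 0.834 CPM in RW females. Rn7s2, the identical copy, was at 0.845, 3.81 and 21.9 CPM in CLAMS males and at 0, 0.227 and 0.531 CPM in RW males. In CLAMS females Rn7s2 was at 0.412, 1.2 and 2.31 CPM, against 0, 0.184 and 0.540 CPM in RW females. All 31 CLAMS male libraries were above every RW male library for Rn7s2, and 30 of 31 were for Rn7s1. 7SL passed the low-count filter mainly through the CLAMS set: with a filter level of 0.581 CPM, Rn7s2 was over it in 31 of 31 CLAMS males and 31 of 32 CLAMS females but in 0 RW males and 1 RW female. Rn7s1 was over it in 31 CLAMS males, 22 CLAMS females, 7 RW males and 1 RW female. A gene that passes in that way had to differ between the sets, so the 7SL differences below are sizes and not evidence that the group as a whole moved.

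7SK varied less and did not keep the order of the other RNAs. Rn7sk was at 3292, 5520 and 11836 CPM in CLAMS males and at 2174, 2772 and 7308 CPM in RW males. In CLAMS females it was at 2115, 3292 and 5660 CPM, against 3265, 4466 and 10455 CPM in RW females. The lowest median was in RW males and the highest in CLAMS males, a ratio of 1.99. In RW, 26 of 31 male libraries were below every female library, whereas in CLAMS 15 of 31 male libraries were above every female library.

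The first comparison set CLAMS against RW, within each sex, with edgeR's quasi-likelihood test and Benjamini-Hochberg adjustment over 18841 genes; a call is an adjusted p under 0.05. In males all 5 RNAs were higher in CLAMS, beside a background of 65% of all genes called in either direction (29.4% higher and 35.5% lower). The log2 fold change of CLAMS over RW males was 4.29 ± 0.23 (SE) for Rn7s2 and 3.51 ± 0.20 for Rn7s1, with adjusted p of 1.51e-33 and 9.88e-31. For Rny1 it was 3.02 ± 0.21 (adjusted p = 3.83e-24) and for Rny3 2.22 ± 0.19 (adjusted p = 3.52e-19). Rn7sk rose by 0.92 ± 0.09 (adjusted p = 4.07e-16). In females 4 of the 5 were higher in CLAMS and Rn7sk was lower, beside 43.6% of all genes called (22.9% higher and 20.6% lower). In females the Y RNAs differed most: Rny3 by 4.40 ± 0.29 (adjusted p = 2.28e-24) and Rny1 by 3.56 ± 0.33 (adjusted p = 1.52e-16). Among females, Rny3 was over the filter level in 32 CLAMS but 6 RW libraries, and Rny1 in 32 and 4. These Y RNA differences are therefore sizes too. Rn7s2 rose by 2.51 ± 0.25 and Rn7s1 by 2.12 ± 0.26 in CLAMS females, with adjusted p of 8.72e-16 and 1.19e-11. Rn7sk fell by 0.50 ± 0.09 in CLAMS females (log2, adjusted p = 8.76e-07). With backgrounds this high, a call alone says little about these RNAs, and the differences are given by their size. With the share of snRNA, snoRNA and scaRNA counts as a covariate, the male differences shrank to 1.30 ± 0.38 for Rn7s2, the 1 call left, 0.45 ± 0.35 for Rn7s1, 0.03 ± 0.41 for Rny1 and -0.63 ± 0.37 for Rny3, whereas all 5 female calls remained. Over all genes, calls with that covariate fell from 12239 to 3549 in males and from 8206 to 6284 in females. The loss of calls in males was thus not particular to these RNAs. That joint share had medians of 0.0371% in CLAMS and 0.0230% in RW females, while the snRNA share alone had 0.0167% and 0.00352%. The fit could thus adjust little for the snRNA difference in females, and the calls left there do not show that it plays no part.

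Markers of some other cells, but not of all, also moved with the CLAMS males. Summed over 4 oligodendrocyte genes, they had a median of 4306 CPM (range 3108 to 6089) in CLAMS males and 2948 CPM (1837 to 3318) in RW males, and of 3082 CPM (2442 to 4023) in CLAMS females and 2960 CPM (2301 to 3731) in RW females. Summed over 4 blood genes, they had a median of 196 CPM (106 to 372) in CLAMS males and 79.9 CPM (61.4 to 168) in RW males, and of 82.8 CPM (43.04 to 163) in CLAMS females and 60.3 CPM (37.9 to 94.5) in RW females. The 5 striatal genes went the other way in males, with a median of 110 CPM (78.8 to 464) in CLAMS and 260.3 CPM (85.4 to 710.4) in RW, and had medians of 199 CPM (70.1 to 608) in CLAMS females and 244 CPM (86.2 to 803) in RW females. No gene of these 3 lists was at 0 in any ZT6 library. Other lists had closer medians in CLAMS and RW males: 168 and 166 CPM for microglia, 125 and 124 for endothelium, and 1785 and 1724 for excitatory neurons. Astrocyte medians were 485 and 432 CPM, and inhibitory neuron medians 541 and 613 CPM. Choroid plexus had 10.3 CPM (2.11 to 769) and 31.6 CPM (2.92 to 938). The part of all these markers in the set and sex differences was not tested.

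The second comparison set males against females. In CLAMS all 5 RNAs were higher in males (background 63.1% called, 29% higher and 34.1% lower). The log2 fold change was 2.90 ± 0.20 for Rny1, 2.52 ± 0.19 for Rn7s1, 2.10 ± 0.18 for Rny3, 1.97 ± 0.18 for Rn7s2 and 0.72 ± 0.09 for Rn7sk. With the same covariate 0 of these 5 CLAMS calls were left, while calls over all genes fell from 11887 to 4334. In RW the Y RNAs were again higher in males, Rny3 by 4.27 ± 0.30 (adjusted p = 5.19e-23) and Rny1 by 3.43 ± 0.34 (adjusted p = 4.48e-15), beside 33.8% of genes called (17.9% higher and 15.9% lower). All RW male but few RW female libraries were over the filter level for the Y RNAs, so these differences too are sizes. Rn7s1 rose by 1.13 ± 0.29 in RW males (adjusted p = 0.000786; 0.36 and no call with the same covariate), Rn7s2 differed by 0.20 ± 0.32 (adjusted p = 0.69), and Rn7sk fell by 0.70 ± 0.09 (adjusted p = 1.65e-10).

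The sex difference itself differed between sets for 4 of the 5 RNAs, in a test of the interaction that called 51.8% of all genes. The difference of the CLAMS and RW sex effects was 1.42 ± 0.13 for Rn7sk (adjusted p = 1.16e-17), which was higher in males in CLAMS and lower in males in RW. For 7SL it was 1.78 ± 0.37 for Rn7s2 (adjusted p = 2.53e-05) and 1.39 ± 0.38 for Rn7s1 (adjusted p = 0.00127). Both 7SL calls were lost and their signs turned with the share of snRNA, snoRNA and scaRNA counts (the short RNA share) as a covariate, at -0.20 for Rn7s2 and -0.62 for Rn7s1, and Rn7s1 was -0.13 with the ribosomal RNA share as a covariate. The interaction was -2.17 ± 0.38 for Rny3 (adjusted p = 8.32e-07), whose male excess was the greater in RW, and -0.53 ± 0.43 for Rny1 (adjusted p = 0.306). Few RW female libraries were over the filter level for the Y RNAs, so these values too are sizes. Averaged over both sets, the 7SL and Y RNAs were higher in males and Rn7sk showed a log2 difference of 0.01 ± 0.06, an average of opposite values (background 58.1%, with 27.6% higher and 30.5% lower). With the short RNA share as a covariate the Y RNAs kept their calls in that average, at 1.51 for Rny1 and 1.57 for Rny3, but 7SL lost both, at 0.05 for Rn7s1 and -0.63 for Rn7s2. Over all genes that covariate cut the calls from 10948 to 3713 in the average and from 9764 to 6125 in the interaction. In RW the short RNA share had medians of 0.0310% in males and 0.0230% in females, while the snRNA share alone had 0.0129% and 0.00352%. The fit could thus adjust little for the snRNA difference between the sexes in RW.

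**Figure D2:**
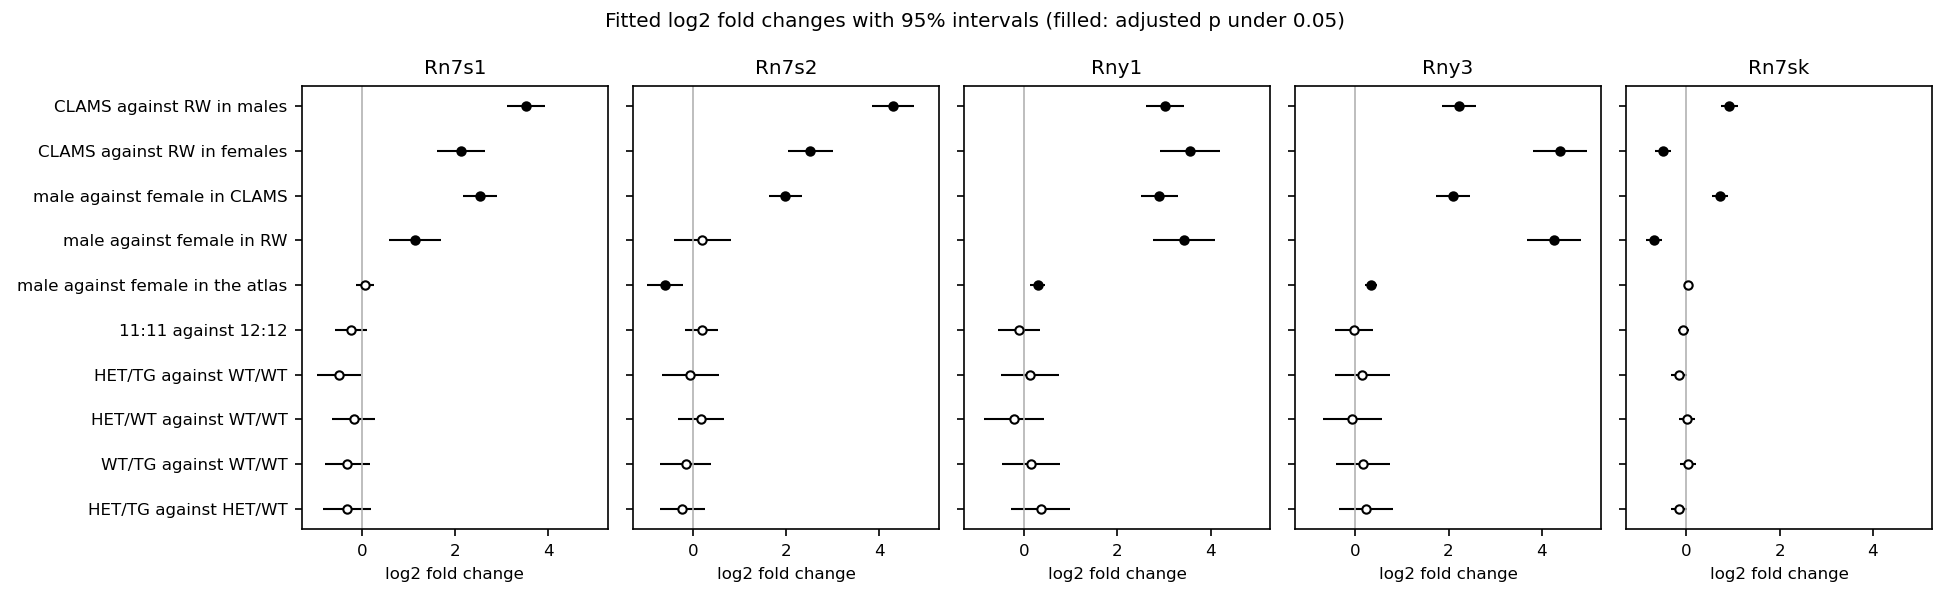
Log2 fold changes with 95% intervals of the 5 tested structural RNAs for 9 ZT6 comparisons and for males against females in the atlas, with filled points where the adjusted p was under 0.05. The set and sex differences within ZT6 reach 4.40, while the light cycle and genotype differences lie around 0.

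RNase P and MRP proteins were more often higher than lower in CLAMS in both sexes, while RNA polymerase III genes had a median change close to 0. The shares over all genes were 29.4% higher and 35.5% lower in CLAMS than in RW males, and 22.9% higher and 20.6% lower in females. Of 11 RNase P and MRP proteins tested, 8 were higher and 1 lower in CLAMS than in RW males, and 7 higher and 1 lower in females. Pop5, a shared subunit of both enzymes, rose by 0.88 ± 0.05 in males (adjusted p = 6.2e-32) and 0.53 ± 0.05 in females (adjusted p = 2.85e-16). Of 9 SRP and SRP receptor genes, 3 were higher and 2 lower in males, and 4 higher and 3 lower in females. Srp14, a protein of the SRP Alu domain, rose by 0.99 ± 0.04 in males (adjusted p = 2.14e-48), and Srp19, which binds the other end of 7SL, by 0.63 ± 0.04 in females (adjusted p = 1.5e-24). Of 8 Ro60, La and other Y RNA partners, 2 were higher and 4 lower in males but 5 higher and 0 lower in females. Trove2 fell by 0.33 ± 0.04 in CLAMS males (adjusted p = 4.32e-15), opposite in sign to Rny1 and Rny3 there. Of 12 genes of the 7SK particle and P-TEFb, 4 were higher and 7 lower in males, and 2 higher and 3 lower in females. Of 32 RNA polymerase III subunits and factors, 11 were higher and 14 lower in males, and 10 higher and 8 lower in females. The median log2 fold change of the RNase P and MRP proteins was 0.30 in males and 0.15 in females, beside -0.03 and 0.02 over all genes tested. Protein-coding genes grouped by transcript length were also higher in CLAMS in the shorter classes. Their medians were 0.39 in males and 0.24 in females for the 51 shortest genes. They were 0.57 and 0.35 for the next 275 genes, and 0.28 and 0.13 for the 1549 after those. For the 2686 longest genes they were -0.18 and -0.05. The part of transcript length in the RNase P and MRP difference was not tested. For the RNA polymerase III genes the median was -0.02 in males and 0.02 in females, close to that of all genes.

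Among measures of library make-up, the share of spliceosomal snRNA was, like the Y RNAs, highest in CLAMS males and lowest in RW females. Counts on spliceosomal snRNA genes were 0.0698% of the library (median, range 0.0259 to 0.193%) in CLAMS males and 0.0129% (0.00807 to 0.0326%) in RW males. In females they were 0.0167% (0.0108 to 0.0244%) in CLAMS and 0.00352% (0.00198 to 0.00511%) in RW. These ranges of snRNA share did not overlap between CLAMS and RW females, between CLAMS males and females, or between RW males and females. The share of snoRNA and scaRNA, the other part of the covariate above, was also highest in CLAMS males, with a median of 0.0693%, but its medians were close in the other strata, at 0.0194% in RW males, 0.0207% in CLAMS females and 0.0195% in RW females. Counts on ribosomal RNA genes had medians of 2.20% in CLAMS males and 0.181% in RW males, and of 0.368% in CLAMS females and 0.698% in RW females. The slope of protein-coding genes' log2 level on their log2 transcript length had medians of -0.12 in CLAMS males and 0.02 in RW males, and of 0.01 in CLAMS females and 0.09 in RW females. CLAMS male libraries thus held relatively more from short genes and RW female libraries more from long ones. The median summed Y RNA level divided by the median snRNA level was 0.121 in CLAMS males and 0.103 in RW males, and 0.0921 in CLAMS females and 0.0217 in RW females. Relative to snRNA, Y RNA was therefore lower in RW females than in the other 3 strata. The summed counts of Rny3, not scaled for length, were 1.2 times those of Rny1 in CLAMS males, 1.97 times in RW males, 2.07 times in CLAMS females and 1.17 times in RW females.

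Other short RNA genes were mostly higher in CLAMS too. Among tested RNA genes other than the members, grouped by transcript length, the median log2 fold change of CLAMS over RW males was 0.54 for 19 genes of up to 100 bases, 1.56 for 62 longer genes of up to 150 bases, 2.59 for 17 of up to 250 bases and 1.39 for 14 longer still. In females those medians were 0.48, 1.51, 1.57 and 0.71. The Y RNAs, of 112 and 102 bases, differed by more than the median of their length class in both sexes. The part of library make-up in these differences was not tested beyond the covariate fits.

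Over the ZT6 libraries together, the Y RNA level of a library moved with its snRNA share within groups. For this, log2 CPM and the snRNA share were each centred on the mean of their group, and p came from 100000 permutations within groups, adjusted over 60 relations of 5 RNAs with 6 library measures in 2 tables. The smallest raw p that these permutations can give is 1e-05. Both axes share the library total. Over 126 ZT6 libraries, Pearson's r was 0.653 and Spearman's rho 0.508 for Rny1 (adjusted permutation p of rho = 5e-05), and r was 0.591 without the 2 libraries farthest from the median share. For Rny3 r was 0.688 and rho 0.591 (adjusted permutation p = 5e-05), and r was 0.628 without those 2. Within strata the r of Rny1 was 0.908 in CLAMS males, -0.0685 in RW males, 0.638 in CLAMS females and 0.457 in RW females, so the relation did not hold in RW males. The r of Rny3 was 0.893 in CLAMS males, 0.340 in RW males, 0.684 in CLAMS females and 0.445 in RW females. With the snoRNA and scaRNA share no such relation passed for the Y RNAs at ZT6, unlike in the atlas: r was 0.112 and rho 0.106 for Rny1 (adjusted permutation p of rho = 0.403), and r was 0.106 and rho 0.182 for Rny3 (adjusted permutation p = 0.139). Without the 2 libraries farthest from the median of that share, r was 0.230 for Rny1 and 0.272 for Rny3. Within strata r with that share was between -0.58 in RW females and 0.665 in CLAMS males for Rny1, and between -0.734 and 0.626 in the same strata for Rny3. For 7SL the relation with the snRNA share was strong in CLAMS males, with r of 0.852 for Rn7s1 and 0.812 for Rn7s2, and r was -0.154 and -0.0715 in RW females. Over all ZT6 libraries Rn7s1 had r = 0.459 and rho = 0.448 with it. With the snoRNA and scaRNA share Rn7s1 had r = 0.585 and rho = 0.561 (adjusted permutation p = 5e-05), and r of 0.489 to 0.781 within strata. Rn7s2 had r = 0.378 and rho = 0.338 with that share (adjusted permutation p = 0.00347), and r of 0.0184 to 0.710 within strata. In the atlas neither 7SL gene passed with it. Rn7sk had r = 0.327 and rho = 0.356 over all ZT6 libraries (adjusted permutation p of rho = 0.0018), with -0.168 in RW males and 0.665 in CLAMS females. With the share of mitochondrial ribosomal RNA, Rn7sk had r = 0.499 and rho = 0.610 (adjusted permutation p = 5e-05) and r between 0.389 and 0.667 in the 4 strata. Those values moved with the scaling: on plain library totals r was 0.323 and rho 0.447 (adjusted permutation p = 5e-05), with r between 0.155 and 0.631 in the strata. Of the 60 relations, 29 had an adjusted p of rho under 0.05.

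**Figure D3:**
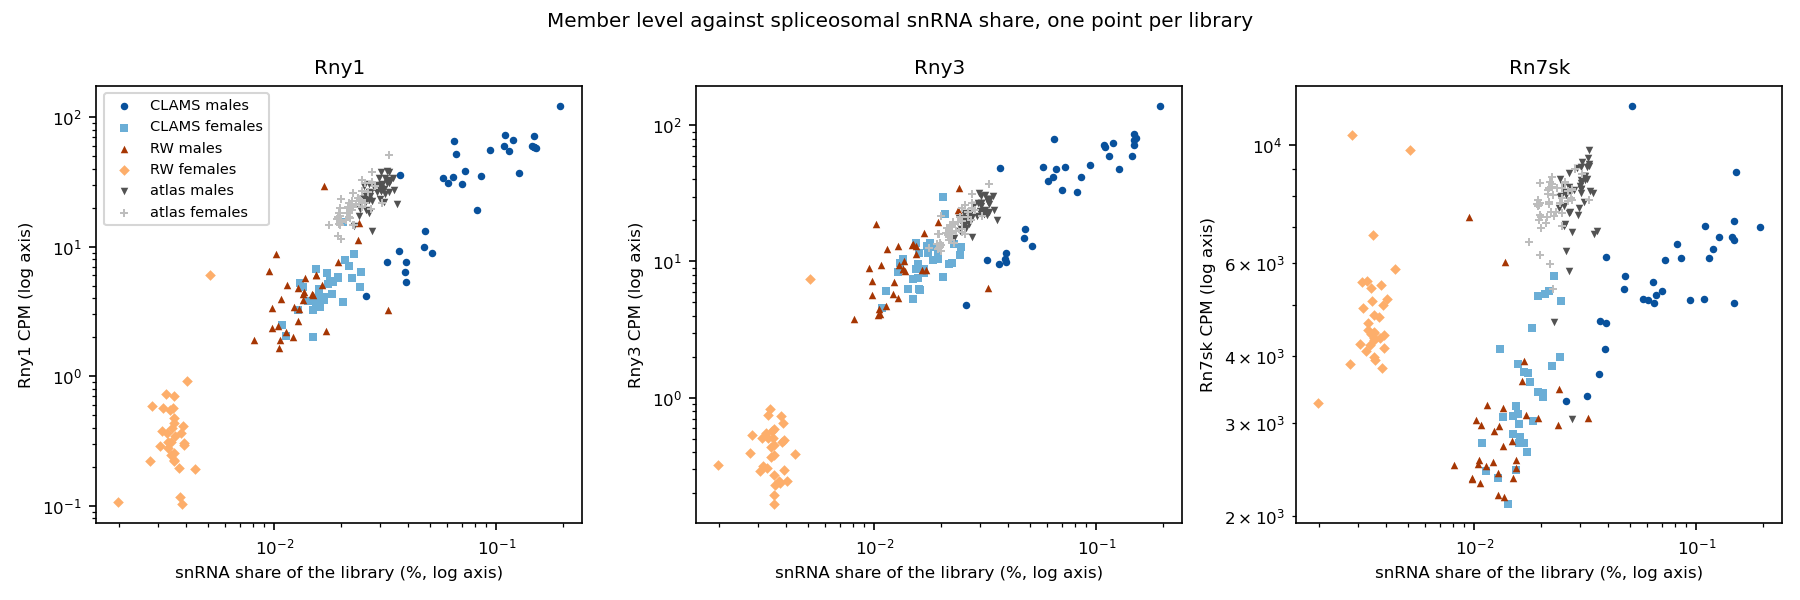
CPM of Rny1, Rny3 and Rn7sk against the percent of library counts on spliceosomal snRNA genes, both on log axes, with 1 point per library and colours for set and sex, the atlas included. The points of CLAMS males spread along a rising line (r = 0.908 for Rny1 within groups), while RW females sit apart at the low end, with snRNA shares of 0.00198 to 0.00511%.

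The snRNA relations of the Y RNAs were also found in the atlas, over a narrower range of shares. Among 92 libraries, centred on sex and time, the snRNA share gave r = 0.784 and rho = 0.794 for Rny3 and r = 0.717 and rho = 0.732 for Rny1 (adjusted permutation p = 5e-05 for each). Without the 2 libraries farthest from the median, r was 0.772 for Rny3 and 0.715 for Rny1, and within males and females r lay between 0.641 and 0.821. Rny1 was still closer to the share of mitochondrial ribosomal RNA, with r = 0.828 and rho = 0.815, and Rn7sk had r = 0.665 and rho = 0.545 with it. The snoRNA and scaRNA share, which did not pass for the Y RNAs at ZT6, did pass in the atlas. There it gave r = 0.494 and rho = 0.498 for Rny1 and r = 0.503 and rho = 0.542 for Rny3 (adjusted permutation p = 5e-05 for each).

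The members differed in how they moved among themselves. Rny1 and Rny3 had a group-centred rho of 0.736 over 126 ZT6 libraries and 0.873 over 92 atlas libraries. Rn7s1 and Rn7s2, identical in sequence, had 0.490 and 0.499. Rny1 and Rn7sk had 0.456 and 0.485, and Rn7s1 with Rn7sk 0.0580 and 0.113. Of non-member genes, Rnu12 (the U12 snRNA of the minor spliceosome) was most like both Y RNAs at ZT6, with rho of 0.639 for Rny1 and 0.609 for Rny3, and in the atlas those were 0.784 and 0.707. Next to Rny1 came Cox5b (0.629) and Atp5k (0.600), and next to Rny3 came Rpl23 (0.541) and Gas5 (0.540). Those most like Rn7sk at ZT6 were Rpl21 (0.765), Pfdn5 (0.753) and Rpl11 (0.746), with rho of 0.303, 0.0989 and 0.166 in the atlas. For Rn7s1 they were Rpl9 (0.598), Rps27a (0.590) and Rpl22l1 (0.583), and for Rn7s2 Smim26 (0.404), Ap1s1 (0.380) and Tomm7 (0.378). These correlations are descriptions, and all of them share library totals.

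The light cycle comparison asked whether 22 days on 11:11 rather than 12:12 changed these RNAs at ZT6. None of the 5 passed the test over both sets, beside 12.6% of all genes called and 4820 at an unadjusted p under 0.05; DESeq2 also called 0 of the 5. The log2 fold change of 11:11 over 12:12 was -0.12 for Rny1 (95% interval -0.58 to 0.33), -0.03 for Rny3 (-0.44 to 0.38), -0.24 for Rn7s1 (-0.58 to 0.10), 0.18 for Rn7s2 (-0.18 to 0.54) and -0.07 for Rn7sk (-0.19 to 0.05). Changes of the Y RNAs smaller than about these bounds were not detectable at this spread. By stratum, Rn7sk had medians of 5520 CPM on 11:11 and 5719 CPM on 12:12 in CLAMS males, and of 3082 and 3417 CPM in CLAMS females. In RW it had medians of 2554 CPM on 11:11 and 2974 CPM on 12:12 in males, and of 4597 and 4457 CPM in females. Rny1 had medians of 33.9 CPM on 11:11 and 44.8 CPM on 12:12 in CLAMS males, with ranges that overlapped (4.17 to 122 and 6.35 to 72.0 CPM). Within strata 0 of the 5 passed in any, beside backgrounds of 13.5% in CLAMS males, 12.3% in CLAMS females, 0% in RW males and 0.276% in RW females (5192, 4635, 749 and 1886 genes at an unadjusted p under 0.05). The nearest was Rn7s2 in CLAMS males, with a log2 fold change of 0.60 ± 0.24 (unadjusted p = 0.0133, adjusted p = 0.0781). Without replicate 3 of each group it was 1.11 ± 0.28 and passed. The light effect did not pass a test of a difference between sets for any of the 5 (background 5.32%, 3553 genes at an unadjusted p under 0.05).

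Among their partners, small changes with the light cycle did pass, beside 7.49% of all genes higher and 5.15% lower on 11:11. Of 12 genes of the 7SK particle and P-TEFb, 4 were higher and 0 lower on 11:11, among them Hexim1, which inhibits P-TEFb on 7SK, at 0.08 ± 0.02 (adjusted p = 0.0138). Of 8 Y RNA partners, 4 were higher, including Ncl at 0.15 ± 0.02 (adjusted p = 3.84e-07) and Ssb at 0.12 ± 0.03 (adjusted p = 0.00362). Of 9 SRP genes 4 were higher and 2 lower, and Srp14 fell by 0.13 ± 0.03 on 11:11 (adjusted p = 0.000219). Of 11 RNase P and MRP proteins 1, Rpp21, was lower, and of 32 RNA polymerase III genes 2 were higher and 2 lower. The median log2 fold changes of the Y RNA and 7SK partner lists were 0.05 and 0.03, beside -0.0010 over all genes tested. These values average both sets. In RW females 1 gene of the 7SK list passed and 0 of the other lists, and in RW males 0 of any list. The backgrounds there were 0.276% and 0% of all genes. In CLAMS males 2 genes of the 7SK list and 5 Y RNA partners were higher, and in CLAMS females 2 and 1.

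The genotype comparisons asked whether the Snord116 deletion or the Ctg transgene changed these RNAs. None of the 5 passed in any of the 4 comparisons, in edgeR or in DESeq2. The backgrounds were 0.0478% of genes called for HET/TG against WT/WT, 0.0106% for HET/TG against HET/WT, 0.0425% for HET/WT against WT/WT and 0.0159% for WT/TG against WT/WT (1144, 1319, 1206 and 803 genes at an unadjusted p under 0.05). For HET/WT against WT/WT the log2 fold change was -0.22 for Rny1 (95% interval -0.87 to 0.42), -0.07 for Rny3 (-0.70 to 0.56) and 0.01 for Rn7sk (-0.17 to 0.18). For HET/TG against WT/WT it was -0.51 for Rn7s1 (-0.98 to -0.03), with an unadjusted p of 0.0397 and an adjusted p of 0.809. Rn7sk differed by -0.15 (-0.32 to 0.02) for HET/TG against WT/WT, by -0.16 (-0.33 to 0.01) for HET/TG against HET/WT and by 0.03 (-0.15 to 0.20) for WT/TG against WT/WT. Both HET/TG differences of Rn7sk passed without the filter on low counts, with adjusted p of 0.000222 against WT/WT and 8.12e-05 against HET/WT. Rn7sk was over the filter level in all 126 libraries, and its log2 values barely moved while their errors shrank. Calls over all genes rose there from 9 to 84 and from 2 to 119. Both Rn7sk calls thus came with smaller errors and not with larger differences. The Rn7sk interval for HET/WT against WT/WT was narrower than those of the Y RNAs. Median Rn7sk was 3869 CPM in HET/TG libraries and 4238 CPM in HET/WT libraries. It was 4181 CPM with the transgene alone (WT/TG), against 4484 CPM in WT/WT libraries.

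Single groups still stood apart by their Y RNAs. In RW males on 12:12, Rny1 was at 29.3, 15.1, 11.1 and 7.63 CPM in HET/TG and at 3.39, 2.65, 2.00 and 1.91 CPM in WT/WT, with no overlap. Rny3 was at 34.7, 23.9, 19.4 and 16.2 CPM in those HET/TG libraries and at 7.05, 5.74, 5.37 and 4.13 CPM in WT/WT. The snRNA share moved with them, at 0.0167 to 0.0240% in HET/TG and 0.0106 to 0.0127% in WT/WT, and its part was not tested. In RW males on 11:11 the order was the opposite, with Rny1 at 3.36, 2.43, 2.22 and 2.20 CPM in HET/TG and at 8.72, 5.74, 4.79 and 4.23 CPM in WT/WT. These groups were picked after their values were seen, and no test is given for them. Replicates could also differ widely within a group: in CLAMS males on 11:11, Rny1 was at 58.4, 9.28, 5.35 and 4.17 CPM in HET/WT and at 59.1, 57.4, 37.1 and 19.1 CPM in WT/WT.

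In the atlas, where all mice were WT/WT in home cages, the 5 RNAs spread far less. Rny1 was at 13.3, 26.4 and 38.3 CPM (lowest, median, highest) in males and at 11.4, 20.2 and 50.9 CPM in females. Rny3 was at 14.9, 22.3 and 31.8 CPM in males and at 11.9, 16.6 and 37.1 CPM in females. Rn7sk was at 3053, 8175 and 9765 CPM in males and at 5360, 7855 and 9015 CPM in females. Rn7s1 was at 0.399, 0.791 and 1.56 CPM in males and at 0.286, 0.822 and 1.93 CPM in females, and Rn7s2 at 0.184, 0.590 and 1.76 CPM in males and at 0.187, 0.592 and 2.87 CPM in females. Atlas and ZT6 libraries were scaled as separate tables, and no test was made between them. All of these ranges overlapped between the sexes.

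No member passed the test for a 24 h rhythm, beside 41.4% of 17193 genes called and 8543 at an unadjusted p under 0.05; DESeq2 also called 0 of the 5. The test fits a cosine and a sine of the time of day with sex as a term, and its amplitude is the log2 distance from peak to trough. The amplitude was 0.05 for Rn7sk (adjusted p = 0.753), 0.05 for Rny3 (0.887), 0.10 for Rny1 (0.774), 0.23 for Rn7s1 (0.397) and 0.36 for Rn7s2 (0.572), beside a median of 0.14 over all genes. The median level of Rn7sk over all animals of a time ran between 7541 CPM at ZT0 and 8268 CPM at ZT6, a ratio of 1.10. For Rny3 it lay between 17.8 CPM at ZT9 and 21.4 CPM at ZT6, and for Rny1 between 19.2 CPM at ZT3 and 26.6 CPM at ZT21. A difference of rhythm between the sexes was called for 0 of the 5 (background 0.0756%, 1334 genes at an unadjusted p under 0.05), with adjusted p of 0.915 to 0.994.

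Several of their partners did pass the rhythm test. Hexim1 had an amplitude of 0.40 with a fitted peak at ZT20.1 (adjusted p = 5.25e-17), and Trove2 one of 0.18 with a peak at ZT18.5 (adjusted p = 4.9e-07). Srpr, the SRP receptor subunit, had 0.15 with a peak at ZT21.3 (adjusted p = 3.92e-07). In all, 8 of 12 genes of the 7SK particle and P-TEFb passed, as did 4 of 9 SRP genes, 2 of 8 Y RNA partners, 6 of 11 RNase P and MRP proteins and 11 of 32 RNA polymerase III genes, against the 41.4% of all genes.

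Between the sexes in the atlas, 3 of the 5 RNAs differed, beside 41.1% of genes called (21% higher and 20.1% lower). Rny3 was higher in males by 0.33 ± 0.07 (log2, adjusted p = 3.81e-05), and its male median was the higher at 8 of 8 times. Rny1 was higher in males by 0.29 ± 0.08 (adjusted p = 0.00254), and its male median was the higher at 7 of 8 times. The snRNA share was 0.0295% in males and 0.0224% in females (medians), the same order, and with the short RNA share as a covariate the differences were -0.00938 for Rny3 and -0.10 for Rny1, without a call. The 5 striatal marker genes summed to a median of 90.5 CPM (61.8 to 256) in males and 325 CPM (75.7 to 799) in females, and their part was not tested. Rn7s2 fell by 0.61 ± 0.20 in males (adjusted p = 0.00981), although its medians were nearly equal. Above a level of 1.2 CPM, chosen after the values were seen, stood 4 of 46 male and 13 of 46 female libraries. No library lay between 0.974 and 1.42 CPM in males or between 0.889 and 1.58 CPM in females, so its libraries formed a low and a high cluster. Rn7s1 differed by 0.06 ± 0.10 (adjusted p = 0.672) and Rn7sk by 0.03 ± 0.04 (adjusted p = 0.56). The Rn7s2 call was lost without replicate 3, at -0.52 and an adjusted p of 0.0612.

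**Figure D4:**
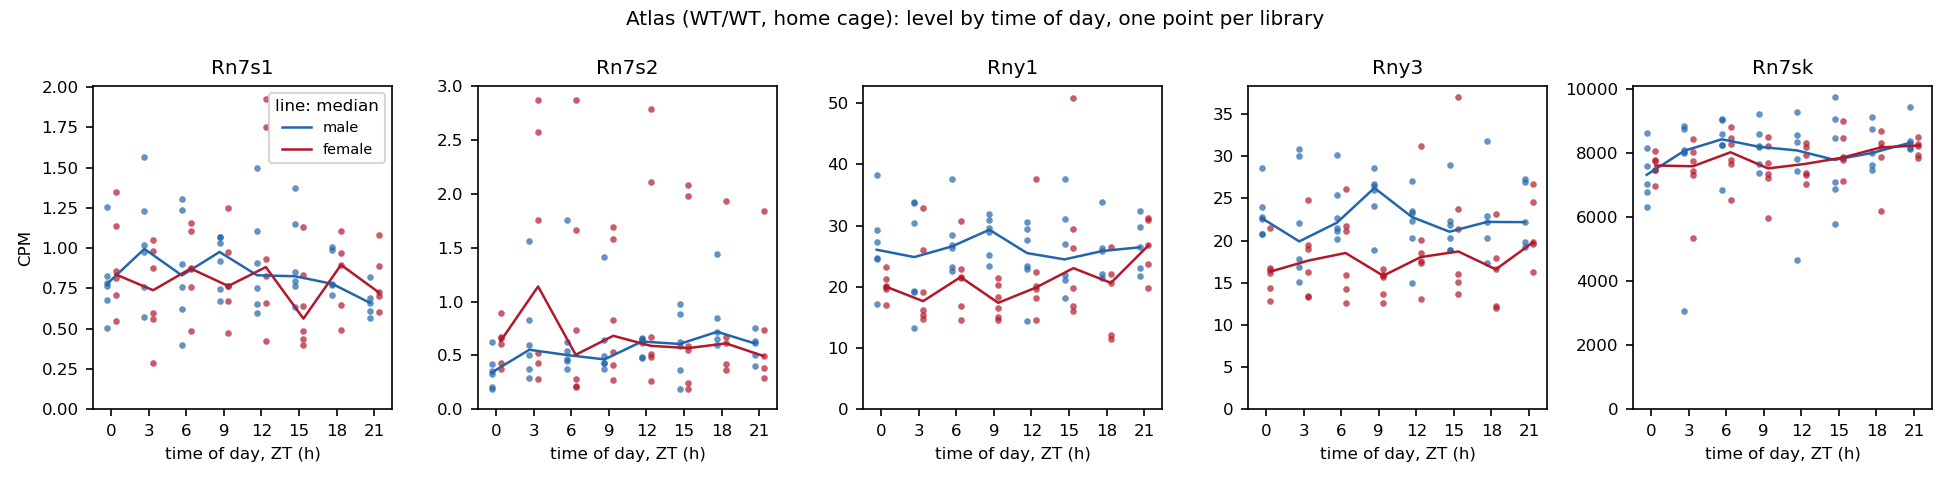
CPM of the 5 tested structural RNAs on linear axes by zeitgeber time in the atlas, with points for single male and female libraries and lines through the medians of each sex. Rn7sk medians stay between 7324 and 8434 CPM in males and between 7524 and 8241 CPM in females, and Rn7s2 shows a separate cluster of libraries above 1.2 CPM.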

How the data were processed

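The deposited values are raw read counts per gene, whole numbers that the authors left unscaled, in 2 tables of 126 and 92 libraries. Total RNA was taken with an AllPrep kit, depleted of ribosomal RNA and made into directional NEBNext libraries, per the labels' protocols. Trim Galore, STAR, SAMtools, limma and the mm10 build are named, per the submitters' processing notes. The sources used here give neither the counting tool nor its annotation. 1 of the 219 labelled samples has no column and was not analysed here.

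Identifiers were matched to GENCODE vM21, and 260 of 55487 did not match. Tests were run on the counts with edgeR 4.0.16 in R 4.3.3 (quasi-likelihood test, robust, TMM scaling, filterByExpr, Benjamini-Hochberg adjustment), over 18841 genes at ZT6 with 1 mean per group and over 17193 genes in the atlas. SE was taken from the log2 fold change and its F statistic. Genes outside the members are the 3 of smallest p in each partner list, or of highest rho. A gene that this rule picks and the sequence of 7SL are not reported here. The members and lists were chosen with earlier results of these data known. In simulated counts with the same spread for every gene, 84% of changes of 0.3 log2 in the light comparison and 63% of rhythms of 0.3 log2 were recovered. The simulation did not use the spread of the members, whose SE in the light comparison was 0.23 for Rny1 and 0.21 for Rny3. Its rates therefore do not apply to these RNAs. Replicates are separate animals. Alternatives were another scaling, library sizes without structural RNAs, no filter, DESeq2 1.42.0, library measures as covariates, each set alone, a replicate block, and each replicate or doubtful library left out.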

Additional observations from a re-analysis of the deposited data

Results flagged for a closer look

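The sex difference was itself different between the CLAMS and RW sets for 4 RNAs. The difference of the male-minus-female log2 values, CLAMS minus RW, was 1.42 for Rn7sk, 1.78 for Rn7s2, 1.39 for Rn7s1 and -2.17 for Rny3. Few RW female libraries were over the filter level for Rny3, so its value is a size. With the share of snRNA, snoRNA and scaRNA counts as a covariate the 2 values of 7SL lost their calls and turned round, at -0.20 for Rn7s2 and -0.62 for Rn7s1. Rn7sk changed sign between the sets, being higher in males in CLAMS and lower in males in RW.

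Single libraries stood far from the others of their group in 14 of 230 tests of RNA and group; chance alone gives about 1 in 20, and 7 of the 14 were Rn7sk. Of the 8 at ZT6, 4 were in RW females or males on 11:11 near the limit of counting. Rn7s1 was at 0 CPM in RW female 11:11 WT/TG replicate 1, the library rich in ribosomal RNA, against 0.117 to 0.163 CPM in the others, and at 0 CPM in RW male 11:11 HET/WT replicate 4, against 0.335 to 0.428 CPM. Rn7s2 was at 0.508 CPM in RW male 11:11 HET/TG replicate 4, against 0.220 to 0.233 CPM. Rny1 was at 0.915 CPM in RW female 11:11 WT/WT replicate 1, against 0.196 to 0.245 CPM. Rny3 was at 6.30 CPM in CLAMS female 11:11 WT/WT replicate 2, against 13.1 to 13.7 CPM, and at 6.39 CPM in RW male 12:12 HET/WT replicate 3, against 8.71 to 8.77 CPM. Rn7sk was at 3723 CPM in CLAMS female 11:11 WT/TG replicate 3, against 3080 to 3113 CPM, and at 3795 CPM in RW female 11:11 HET/TG replicate 3, against 4299 to 4409 CPM.

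In the atlas, Rn7sk at ZT3 was at 3053 CPM in male replicate 1 against 7993 to 8839 CPM in the others, and at 5360 CPM in female replicate 5 against 7311 to 8452 CPM. Rn7sk was also at 4650 CPM in male replicate 2 at ZT12 (7433 to 9299 CPM in the others), at 6856 CPM in male replicate 4 at ZT6 (8241 to 9069 CPM) and at 9449 CPM in male replicate 4 at ZT21 (8120 to 8384 CPM). Rn7s2 was at 1.76 CPM in male replicate 2 at ZT6, against 0.373 to 0.619 CPM.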

How the results depend on the processing

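Of 1404 alternative values for single members, 1363 kept their side of the threshold (82 of them uncalled values whose sign changed). With the sign kept, 11 lost a call and 18 gained one. Another 12 turned round in sign and also changed their call: those of Rn7sk gained a call, and the others lost theirs. Of the 12, 10 turned with the share of snRNA, snoRNA and scaRNA counts as a covariate. No call moved under another scaling, library sizes without structural RNAs or DESeq2. With that share as a covariate, the number of members called was 1 (5 without it) for CLAMS against RW males, 0 (5 without it) for males against females in CLAMS and 2 (4 without it) at ZT6 over both sets, whereas CLAMS against RW females kept 5 calls with log2 values of 3.43 for Rny3, 2.56 for Rny1, 1.51 for Rn7s2, 1.07 for Rn7s1 and -0.70 for Rn7sk. In the same order, calls over all genes fell from 12239 to 3549, from 11887 to 4334, from 10948 to 3713 and from 8206 to 6284. The loss of calls was thus not particular to these RNAs. Between the sexes in the atlas, calls over all genes went from 7069 to 7434 with it. Between the female sets the joint share differed less than the snRNA share alone, so this covariate could adjust little for snRNA there. The values that turned round under it were Rny3 in CLAMS against RW males (-0.63); Rn7s1 (-0.26), Rn7s2 (-0.73) and Rny3 (-0.46) between the sexes in CLAMS; Rn7s2 between the sexes at ZT6 (-0.63); Rn7s1 (-0.62) and Rn7s2 (-0.20) in the sex by set difference; and Rny1 (-0.10), Rny3 (-0.00938) and Rn7sk (-0.14) between the sexes in the atlas. With the ribosomal RNA share as a covariate Rn7s1 in the sex by set difference was -0.13, and in RW alone Rn7sk between the sexes was -0.70. The cause of these changes was not tested.

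Without the filter on low counts 1 member was called for HET/TG against WT/WT, 2 for HET/TG against HET/WT, 1 for the light cycle, 2 each for the light cycle in CLAMS females and CLAMS males, 1 each in RW females and RW males, and 1 for the light cycle by set, where the filtered tests called 0. These log2 values barely moved while their errors shrank: Rn7sk for HET/TG against WT/WT was -0.15 ± 0.09 with the filter and -0.15 ± 0.03 without it. Calls over all genes rose as well, from 9 to 84 for HET/TG against WT/WT and from 2 to 119 for HET/TG against HET/WT. They rose from 0 to 108 for the light cycle in RW males and from 1003 to 1250 for the light cycle by set. The added calls were thus not particular to the members. The light cycle in CLAMS males had 1 call with the short RNA or ribosomal RNA share as a covariate, and 0 to 1 with a replicate left out. DESeq2 gave no adjusted p to Rn7s1 and Rn7s2 for the light cycle in RW females.

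Deviations of same-numbered libraries had a median correlation of 0.0106 over 434 pairs at ZT6 and 0.00783 over 310 pairs in the atlas, so the numbers showed no general pairing. At ZT6 11.8% of same-numbered pairs were over 0.1, beside 5.91% of other pairs, and in the atlas 20.3% and 18.2%. A link between some same-numbered libraries was not tested beyond the replicate block. With the replicate block 0 members were called for the light cycle, as without it. Counts over all genes moved more than those of members: the light cycle had 2383 calls, 36 in RW alone and 2710 in CLAMS alone, and HET/WT against WT/WT had 8, with 4 to 107 over the alternatives.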
